A study of Drosophila melanogaster with 2 samples.

Results

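Genes of the ubiquitin system other than the proteasome itself were examined in control and *bs* KD indirect flight muscles (IFMs). They comprise polyubiquitin, the activating enzyme (E1), conjugating enzymes (E2), ligases (E3), the TER94 segregase with its cofactors, shuttle factors and deubiquitinases. The genes were listed by function and matched to the authors' table by FlyBase symbol. No value set the rule, but earlier results of these data were known when the list was made. Of 45 listed genes, 44 were found among the 13931 genes of the table, and all 44 were among the 6384 genes detected at 1 TPM (transcripts per 1000000 transcripts) or more in at least one library. *Cul5* was not matched and is not analysed here.

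The study asked which genes of the flight muscle respond to loss of Blistered (Bs), the *Drosophila* ortholog of the transcription factor SRF. Control flies (genotype 1151/+) carried the *1151-Gal4* driver over a w1118 background, and *bs* KD flies (1151>bs[RNAi KK108659]) carried the same driver together with an inducible double-stranded RNA against *bs*. IFMs were dissected from 4 females per sample, aged 3 days at 29°C, and polyadenylated RNA was sequenced as single-end reads of 100 bp. There was 1 library per genotype, so no difference below has a replicate check and no test was run. *1151-Gal4* is first active in myoblasts, which limits the model in that the knockdown began before the muscle differentiated. The control lacked the RNAi insertion, and *w*, the eye-colour gene used to mark such insertions, stood at 64.1 TPM in control IFMs and 408.8 TPM in *bs* KD.

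Ubiquitin is a small protein that is activated by E1, passed to an E2 and joined by an E3 to a chosen substrate, on which further ubiquitins build a chain. TER94, the fly ortholog of the mammalian ATPase p97, pulls ubiquitylated proteins out of complexes and membranes with the help of cofactors, and shuttle factors carry them to the proteasome. Deubiquitinases trim or remove the chains and return free ubiquitin to the pool. In muscle this route removes misfolded and surplus myofibrillar protein.

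The libraries held 20955053 estimated reads for control and 19767477 for *bs* KD. *bs* itself stood at 2.75 TPM in control against 1.80 TPM in *bs* KD, 65.6% of control, from 148 and 98.3 estimated reads (95% counting interval of the ratio 0.503 to 0.852). This value pools all *bs* transcripts, whereas the paper states that the RNAi line targets *bs-RA* and *bs-RC* and not *bs-RB*. By quantitative RT-PCR of *bs-RA/RC* in IFMs the paper reports a larger reduction than this gene-level value. All 8 flight muscle markers were detected in both, at 86529 and 66392 TPM in sum. *Act88F*, the flight muscle actin, was at 33116 TPM in control and 7471 TPM with *bs* KD. Of 39 markers of other cell types, 20 were detected, with sums of 509.5 TPM for control and 459.0 TPM for *bs* KD. Among the 20, 2 were higher and 5 lower by 2-fold or more, while 9.38% of all detected genes were higher and 6.05% lower by this size. Ovary markers were not detected, and neuron markers (4.15 and 1.93 TPM) and hemocyte markers (5.27 and 3.87 TPM) were low in sum. Tracheal markers were lower in *bs* KD (343 and 209 TPM, 6 of 6, 3 by 2-fold or more), with *verm* at 14.0 and 0.740 TPM and *Cht5* at 304.8 and 200.4 TPM. Of 5 detected fat body markers 4 were lower, 2 of them by 2-fold or more, *Lsp2* (2.34 and 0.388 TPM) and *Fbp1* (1.96 and 0.222 TPM). *Yp2*, at 13.2 and 10.4 TPM, stayed within 2-fold, and *Yp1* was higher, at 4.35 and 9.31 TPM. The 3 detected gut markers were all under 1 TPM in control and were detected only through *bs* KD, so their higher values follow from that filter. Among them only *Jon65Aiii*, at 0.476 and 2.92 TPM, passed 2-fold. *Jon25Bii*, at 0.941 and 0 TPM, did not count as detected. The gut markers found held 2.39 and 5.35 TPM in sum. Of 4 detected glial markers 2 were higher and 2 lower (129 and 217 TPM in sum), with *nrv2* at 10.4 and 84.6 TPM and *Eaat1* at 39.3 and 24.9 TPM. The share of these cells in the results below was not tested. In such bulk samples fewer cells of a type and less RNA per cell cannot be told apart.

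Of the 44 genes, 9 were higher in *bs* KD by 2-fold or more, which is 20.5%, while 9.38% of all detected genes were higher by this size. None of the 44 was lower by 2-fold or more, while 6.05% of all detected genes were. The 9 genes were *TER94*, *Ufd1-like* and *p47* of the segregase, *Rad23* and *Ubqn* of the shuttle factors, *Uch-L5* and *Usp5* of the deubiquitinases, and *Roc1a* and *Roc2* of the cullin ligases. Differences are given as log2 of *bs* KD over control after adding 1 TPM to both, which understates those of low genes, and 2-fold refers to this scale, whereas ratios are of TPM as deposited. The median difference over the 44 genes was 0.26, against 0.07 over all detected genes and 0.13 as the median log2 ratio of the 1804 genes with 10 TPM or more in both libraries. In the 44 genes 30 values (68.2%) were higher and 14 lower, while 55.1% of all detected genes were higher. Just inside the 2-fold limit lay *Ubqn* at 1.13, and just outside it lay *Ubi-p63E* at 0.85, *Uba1* at 0.82 and *STUB1* at 0.74. On the lower side *Ubi-p5E* at -0.85 and *Usp7* at -0.83 also lay just short of the limit.

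Levels of these genes in the control ran from 1.19 TPM for *Usp8* to 1330.0 TPM for *Ubi-p5E*, and 23 of the 44 were under 10 TPM, 14 between 10 and 100 TPM and 7 at 100 TPM or above. The 9 genes that were higher by 2-fold or more stood between 1.87 and 63.4 TPM in the control, so none came from the most abundant 7. Together the 9 held 159 TPM in control IFMs and 460 TPM in *bs* KD, and the other 35 held 3183 and 2931 TPM. The 9 were picked by their difference, so these sums describe abundance only. Of the other 35, 21 had higher values and 14 lower, and *Ubi-p5E* alone held 1330.0 and 735 TPM of their sums. The 95% counting interval of the ratio, which covers counting error only, lay above 1 for 27 genes and below 1 for 9 genes, and included 1 for 8 genes. Of all detected genes, 39% had an interval above 1 and 30.4% an interval below 1. Ordered by the difference, the 9 genes ranked from 56 for *TER94* to 451 for *Ubqn* among all 6384 detected genes. They did not share a location. Of them 3 lie on chromosome arm 2R, 3 on 3L, 2 on X and 1 on chromosome 4. The share of all detected genes past 2-fold on each arm was not computed, so these counts only describe location.

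**Figure D1:**
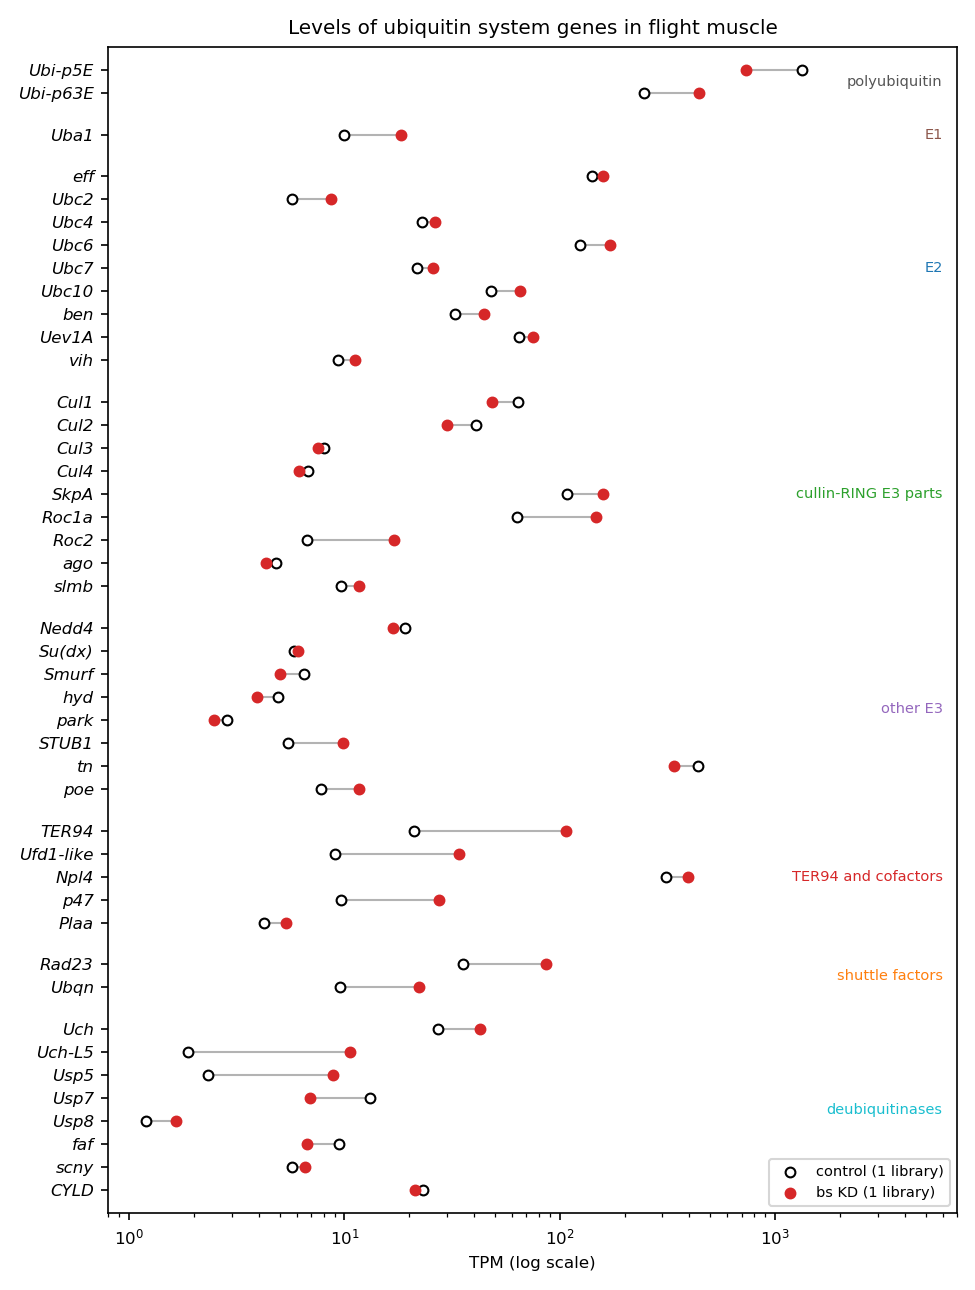
TPM of the 44 genes on a log axis, ordered by role, with the control library as open circles, the *bs* KD library as red circles and a grey line joining them (1 library each). The widest gaps are at *TER94*, *Ufd1-like*, *p47*, *Uch-L5* and *Usp5*, whereas the E2 pairs lie close together.

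By class median the segregase differed most. By summed TPM the shuttle factors did, with a ratio of *bs* KD over control of 2.40 against 1.60 for the segregase. *TER94* (FBgn0261014, chromosome arm 2R, 9989159 to 9993559, BDGP6.54 annotation), which encodes the ATPase, stood at 21.0 TPM in control against 106.5 TPM in *bs* KD, a difference of 2.29. With 1113 and 5682 estimated reads its ratio was 5.08 (interval 4.76 to 5.42), and it ranked 56 from the top among the 6384 detected genes. *Ufd1-like* (FBgn0036136, 3L, 11121966 to 11123216) encodes one arm of the heterodimer by which the ATPase grips ubiquitin chains. It was at 9.05 TPM in control and 34.0 TPM with *bs* KD, a difference of 1.80, and the interval of its ratio ran from 3.18 to 4.45. On the other strand it overlaps *mRpL2*, which was at 54.1 and 74.5 TPM, and the sources used here do not state whether reads were assigned by strand.

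*Npl4* encodes the other arm of that heterodimer and differed less than its partner. It was already at 311 TPM in the control and stood at 394 TPM in *bs* KD, a difference of 0.34 (interval of the ratio 1.24 to 1.30). The TPM ratio of *Npl4* to *Ufd1-like* was therefore 34.3 in control and 11.6 in *bs* KD, and that of *TER94* to *Npl4* was 0.068 and 0.270. *p47* (FBgn0033179, 2R, 7465018 to 7466759), a cofactor known in mammals for membrane fusion, stood at 9.65 TPM in control IFMs and 27.4 TPM in *bs* KD, a difference of 1.42 (interval of the ratio 2.45 to 3.32). *Plaa*, the ortholog of a ubiquitin-binding cofactor of the ATPase, was at 4.22 and 5.35 TPM, a difference of 0.28 (interval 1.04 to 1.54). All 5 segregase genes thus had higher values in *bs* KD, 3 of them by 2-fold or more, with a class median of 1.42.

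Both shuttle factors were higher by 2-fold or more. *Rad23* (FBgn0026777, chromosome 4, 308093 to 310822) encodes a protein that binds ubiquitin chains at one end and the proteasome at the other. It stood at 35.7 TPM in control against 86.6 TPM in *bs* KD, a difference of 1.26 with an interval of the ratio from 2.25 to 2.62. *Ubqn* (FBgn0031057, X, 19683808 to 19687658), the ubiquilin ortholog, which also receives misfolded membrane proteins, was at 9.57 TPM in control and 22.1 TPM with *bs* KD. Its difference was 1.13 and the interval of its ratio 2.09 to 2.55. Their class median of 1.19 was below that of the segregase.

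The deubiquitinases were split. *Uch-L5* (FBgn0011327, 3L, 9475493 to 9476965) encodes a hydrolase that docks on the proteasome. It stood at 1.87 TPM in control IFMs and 10.6 TPM in *bs* KD, a difference of 2.02, the second largest of the 44 genes. Only 39.1 estimated reads lay behind the control value against 229 in *bs* KD, so the ratio of 5.68 has a wide interval, from 4.04 to 8.22. *Usp5* (FBgn0035402, 3L, 3145405 to 3148358) encodes the enzyme that takes apart free ubiquitin chains. It was at 2.33 TPM in control against 8.87 TPM in *bs* KD, from 109 and 421 estimated reads, a difference of 1.57 (interval of the ratio 3.09 to 4.76).

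The other 6 deubiquitinases stayed within 2-fold. *Uch*, a ubiquitin hydrolase of small adducts, was at 27.3 and 42.5 TPM, a difference of 0.62. *Usp7*, which in mammals protects nuclear regulators from degradation, lay at the opposite end, at 13.1 TPM in control and 6.92 TPM with *bs* KD. This difference of -0.83 (interval of the ratio 0.481 to 0.580) was the lowest among the deubiquitinases. *faf*, which stabilises the endocytic protein epsin in the eye, was at 9.47 and 6.70 TPM, a difference of -0.44 (interval of the ratio 0.656 to 0.764). On the other strand it overlaps *Mccc1*, which was at 6.31 and 5.89 TPM. For *Usp8*, an endosomal enzyme (1.19 and 1.65 TPM), *scny*, a histone deubiquitinase (5.72 and 6.56 TPM), and *CYLD*, which cuts signalling chains (23.3 and 21.2 TPM), the counting interval included a ratio of 1. The class as a whole had a median of 0.22, with 5 values higher and 3 lower.

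**Figure D2:**
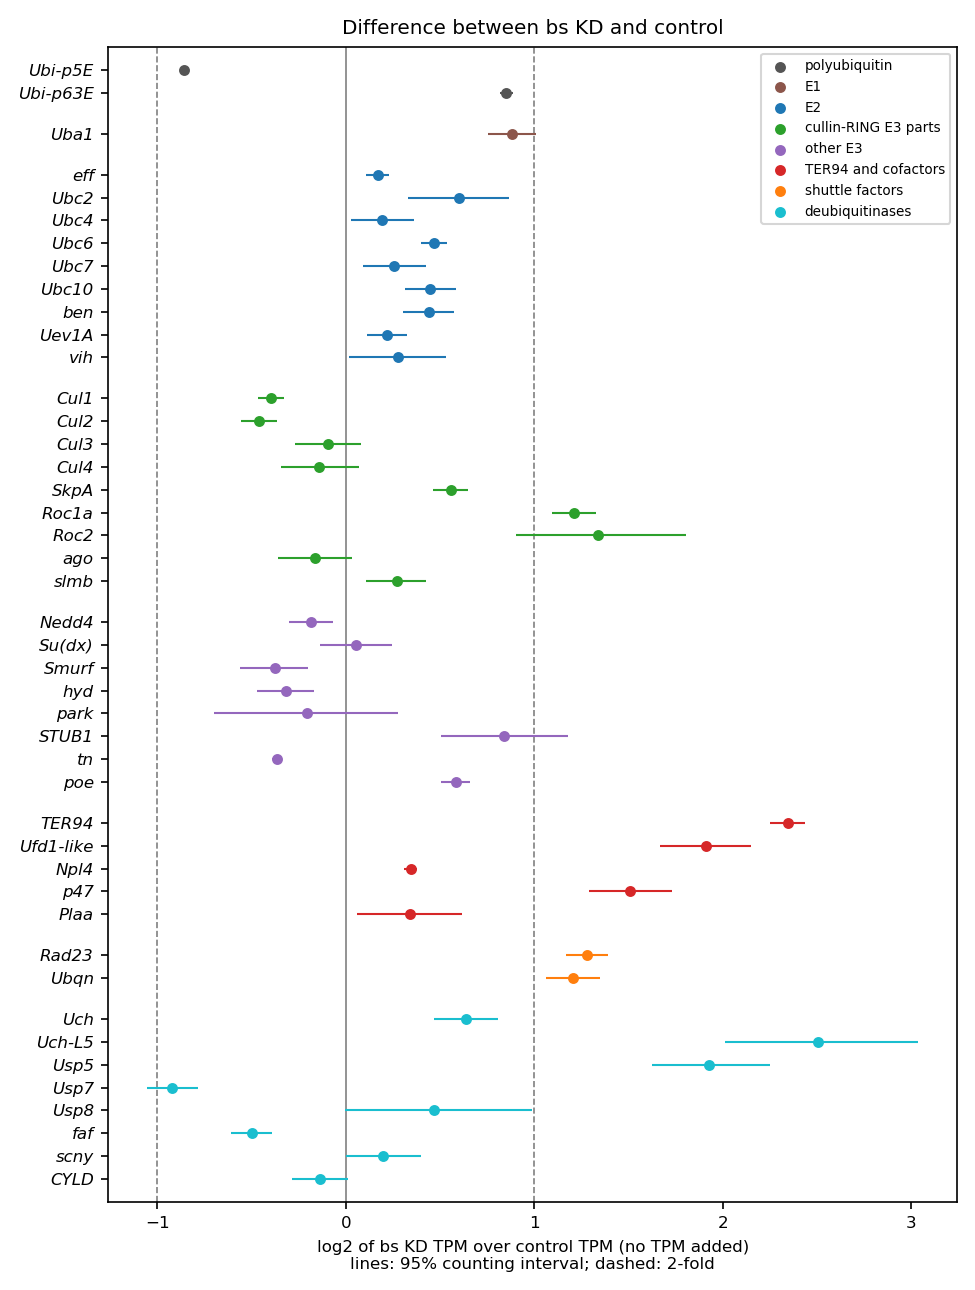
Log2 ratio of *bs* KD over control TPM for the 44 genes, with no TPM added, coloured by role, with bars for the 95% counting interval, a solid line at no difference and dashed lines at 2-fold. *TER94* and *Uch-L5* lie farthest to the right, *Usp7* and *Ubi-p5E* farthest to the left, and no point lies beyond the left dashed line.

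In the cullin-RING ligases, both RING subunits were higher in *bs* KD while the scaffolds *Cul1* and *Cul2* were lower. *Roc1a* (FBgn0025638, X, 647304 to 648597), the RING subunit that binds the E2, stood at 63.4 TPM in control IFMs and 147 TPM in *bs* KD, a difference of 1.20 (interval of the ratio 2.13 to 2.51). *Roc2* (FBgn0044020, 2R, 11652756 to 11679354), the RING subunit whose mammalian ortholog pairs with CUL5, was at 6.72 TPM in control against 17.0 TPM in *bs* KD, a difference of 1.22. It rested on 59.1 and 151 estimated reads (interval of the ratio 1.87 to 3.50), and on the other strand it overlaps *Tret1-1*, a trehalose transporter gene at 514 and 378 TPM. *Roc1a* overlaps *Hmt4-20* on the other strand, which was at 4.15 and 3.25 TPM. The TPM ratio of *Roc2* to *Roc1a* was 0.106 in control and 0.116 in *bs* KD.

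The scaffolds *Cul1* to *Cul4*, a grouping made after their values were seen, all had lower TPM in *bs* KD, except that *Cul3* was higher in estimated reads scaled to the library total and *Cul4* relative to genes of like length. *Cul1*, the scaffold of the SCF ligase, was at 63.9 TPM in control and 48.5 TPM with *bs* KD, a difference of -0.39 (interval of the ratio 0.724 to 0.797). *Cul2*, the scaffold that works with elongins, was at 41.0 and 29.8 TPM, a difference of -0.45 (interval 0.680 to 0.777). The intervals of *Cul3* (8.07 and 7.57 TPM) and *Cul4* (6.78 and 6.15 TPM) included 1, and *Cul4* overlaps *Tmem63* on the other strand, at 6.61 and 13.9 TPM. The TPM ratio of *Roc1a* to *Cul1* accordingly stood at 0.992 in control and 3.03 in *bs* KD. *SkpA*, the adaptor between *Cul1* and F-box proteins, was at 107.5 TPM in control IFMs and 158 TPM in *bs* KD, a difference of 0.55, and its TPM ratio to *Cul1* was 1.68 and 3.26. Of the F-box proteins, which choose the substrate, *slmb* was at 9.65 and 11.6 TPM, and *ago* was at 4.83 and 4.32 TPM with an interval that included 1. The median of the 9 cullin-RING genes was -0.08, but it was 0.16 in reads scaled to the library total and 0.02 relative to genes of like length.

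No other E3 passed 2-fold, and 5 of the 8 values were lower in *bs* KD, or 6 with *Su(dx)* when the libraries were rescaled by the median ratio. *tn* (thin), the TRIM32 ortholog that keeps myofibrils intact, was by far the most abundant ligase, with 438 TPM in control against 339.9 TPM in *bs* KD. Its difference was -0.37, and 34384 and 27038 estimated reads gave a narrow interval of the ratio from 0.763 to 0.788. Among the HECT ligases, which carry ubiquitin on a cysteine of their own, *Nedd4* was at 19.2 and 16.9 TPM (-0.17), *Smurf* at 6.51 and 5.01 TPM (-0.32) and *hyd* at 4.89 and 3.92 TPM (-0.26). *Su(dx)*, also a HECT ligase, which acts in the Notch pathway, had a higher value in *bs* KD, at 5.83 and 6.06 TPM (0.05). *park*, the Parkin ortholog of mitochondrial quality control, was at 2.85 and 2.47 TPM. The intervals of *Su(dx)* and *park* included 1. The highest values of the class belonged to *STUB1*, the ligase that works with chaperones, at 5.49 and 9.81 TPM (0.74, interval of the ratio 1.42 to 2.26), and *poe*, the UBR4 ortholog, at 7.76 and 11.6 TPM (0.53, interval 1.42 to 1.58). The class median was -0.16.

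The upstream enzymes were higher by smaller amounts. *Uba1* (FBgn0023143, 2R, 9688289 to 9693328), which encodes the ubiquitin E1, stood at 9.99 TPM in control and 18.4 TPM with *bs* KD, a difference of 0.82 (interval of the ratio 1.68 to 2.01). All 9 E2 genes had higher TPM in *bs* KD, by 0.17 to 0.53 with a median of 0.25, although *eff*, *Ubc4* and *Ubc7* were below genes of like length. The pair with the largest differences were *Ubc2* (5.69 and 8.63 TPM, 0.53) and *Ubc6*, the Rad6 ortholog (124 and 171 TPM, 0.46). *Ubc10*, the UBE2L3 ortholog (47.7 and 65.2 TPM, 0.44), and *ben* (32.7 and 44.3 TPM, 0.43), which builds signalling chains, came next. *Uev1A*, the partner of *ben*, was at 64.4 and 74.9 TPM (0.22). *eff*, a broad partner of ligases (141 and 159 TPM, 0.17), *Ubc4* (22.9 and 26.2 TPM, 0.19), *Ubc7* of endoplasmic reticulum-associated degradation (21.6 and 25.8 TPM, 0.25) and *vih*, which serves cyclin destruction (9.29 and 11.2 TPM, 0.25), made up the rest. In sum the E2 genes held 469 TPM in control IFMs and 586 TPM in *bs* KD.

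The polyubiquitin genes, which encode head-to-tail ubiquitin repeats, differed in opposite directions. *Ubi-p5E* (FBgn0086558, X, 6276876 to 6279647) stood at 1330.0 TPM in control against 735 TPM in *bs* KD, a difference of -0.85 (interval of the ratio 0.544 to 0.562). *Ubi-p63E* (FBgn0003943, 3L, 3899259 to 3903184) stood at 246 TPM in control and 444 TPM with *bs* KD, a difference of 0.85 (interval 1.76 to 1.85). The TPM ratio of the former to the latter was 5.41 in control and 1.66 in *bs* KD. Their repeats are near-identical, so the division of reads between them is uncertain. Summed, they held 1576 TPM in control IFMs and 1179 TPM in *bs* KD, 74.8% of control (interval of the ratio 0.739 to 0.758). The summed TPM still depends on that division, which the interval does not cover, because the genes differ in length (960 and 2243 bases in control). Their summed estimated reads do not depend on it, and were 55116 of 20955053 in control and 44910 of 19767477 in *bs* KD. As shares of these library totals they were lower in *bs* KD by less than the summed TPM.

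Ubiquitin is also encoded by *RpL40* and *RpS27A*, as fusions with ribosomal proteins. *RpL40* was at 699.9 TPM in control against 901 TPM in *bs* KD, and *RpS27A* at 1480.3 and 1520.5 TPM. With these fusions, the 4 ubiquitin genes together held 3756 TPM in control and 3600.5 TPM with *bs* KD, 95.9% of control (interval of the ratio 0.949 to 0.969). These sums count transcripts and not ubiquitin units, since a polyubiquitin transcript holds several. The sum of the 4 genes also carries the uncertain division of reads between the polyubiquitin genes.

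**Figure D3:**
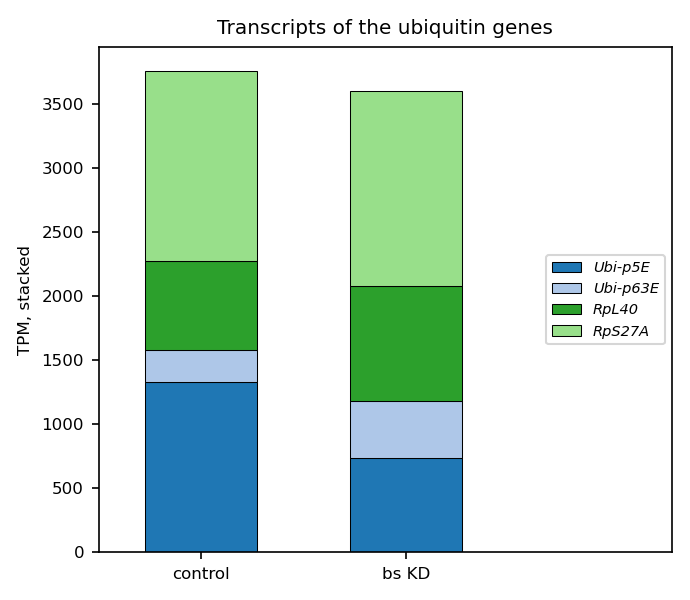
Stacked TPM of the 4 genes that encode ubiquitin in the control and *bs* KD libraries (1 each), with the polyubiquitin genes in blue and the ribosomal fusion genes in green. The polyubiquitin part is smaller in *bs* KD (1576 and 1179 TPM) and the fusion part larger (2180.1 and 2421 TPM).

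Other genes of the pathway were counted from lists set by function, beside 9.38% of all detected genes that were higher by 2-fold or more. Of the 14 proteasome core genes 13, and of the 19 regulatory particle genes 19, exceeded 2-fold, with medians of 2.04 and 2.26. Among those with 10 TPM or more, the core ran from *Prosbeta1* (51.6 and 125.8 TPM, 1.27) to *Prosalpha6* (6.76 and 58.1 TPM, 2.93) and the particle from *Rpn10* (29.9 and 113.9 TPM, 1.90) to *Sem1* (27.2 and 175.6 TPM, 2.65). Of the segregase, shuttle and deubiquitinase genes above, *TER94* and *Uch-L5* lay near these medians. In the 8 genes of the COP9 signalosome, which removes Nedd8 from cullins, 2 were higher by 2-fold or more and the median was 0.70. Among those with 10 TPM or more, *CSN7* was at 13.7 and 35.1 TPM, a difference of 1.30, and *CSN4* at 15.6 and 20.6 TPM (0.38). Of the 8 values 7 were higher and 1 lower, that of *CSN3* at 4.44 and 3.87 TPM (-0.16), whose interval included 1. Of 6 other partners of TER94, *Der-1*, a channel component of endoplasmic reticulum-associated degradation, passed 2-fold (3.98 and 11.7 TPM, 1.36), *Ube4B* was at 26.2 and 18.5 TPM (-0.48), and the median was 0.56.

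Of all detected genes, 9.38% were higher and 6.05% lower by 2-fold or more, and the remaining enzymes likewise mostly stayed within 2-fold. Of 15 other detected deubiquitinases 1 passed it, *Usp14*, whose product sits on the proteasome like that of *Uch-L5*. It stood at 8.50 TPM in control IFMs and 56.5 TPM in *bs* KD, a difference of 2.60. The other end was *Usp47* at 53.1 and 33.8 TPM (-0.63), and the median was -0.19. Of 31 other detected E3 genes 1 passed 2-fold, *Ube3a*, the ortholog of the Angelman syndrome ligase (2.65 and 11.5 TPM, 1.78). *LUBEL*, which builds linear chains, was at 114.8 and 66.3 TPM (-0.78), and the median was -0.01. Of 4 other E2 genes found 2 were detected and none passed 2-fold. Of 16 genes of ubiquitin-like conjugation 4 exceeded 2-fold, or 1 under median-ratio or upper-quartile scaling, and the median was 0.45. None of the genes in these lists was lower by 2-fold or more on this scale, although *mib1* (2.90 and 1.11 TPM) passed it with a pseudocount of 0.5 TPM or without mitochondrial genes, and *mib1* and *LUBEL* in reads scaled to the library total.

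**Figure D4:**
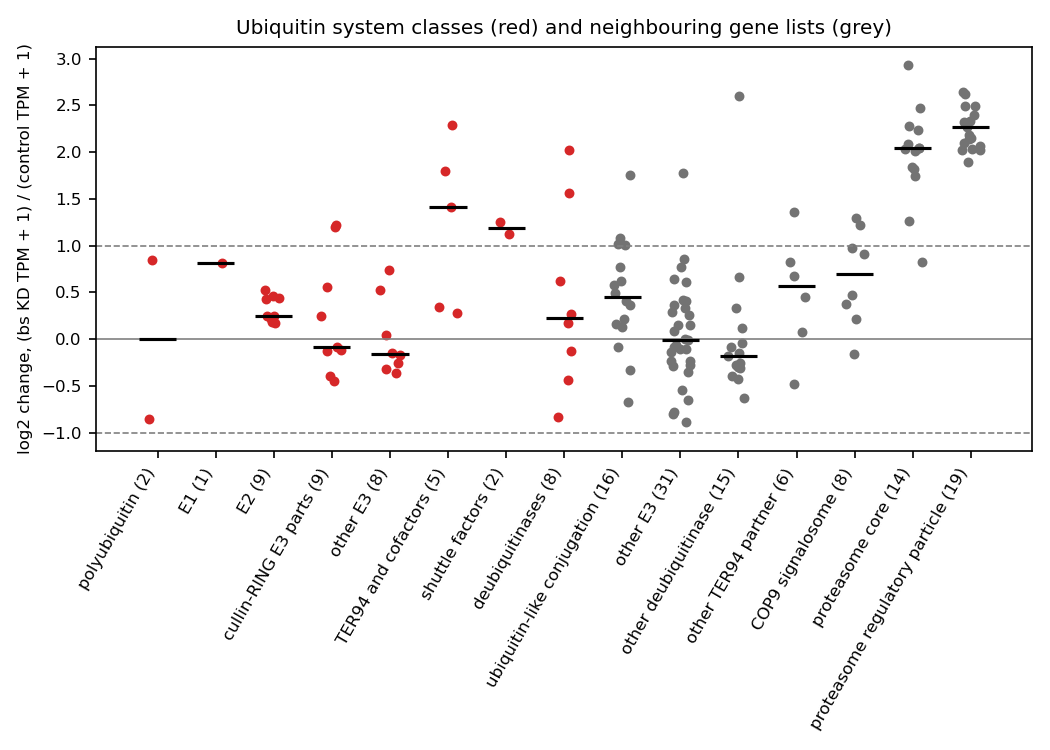
Log2 difference, (bs KD TPM + 1) over (control TPM + 1), of each detected gene, with the ubiquitin system classes in red and neighbouring lists in grey (number of genes in parentheses). Black bars mark medians and dashed lines 2-fold. The segregase (1.42) and shuttle factors (1.19) lie between the other classes and the proteasome (2.04 and 2.26).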

How the data were processed

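The authors quantified the reads of the 1 control and 1 *bs* KD library with Salmon on the Galaxy platform against annotated transcripts. The deposited table holds, per gene, TPM, an estimated count, a length and an effective length in bases. Versions of Salmon and DESeq2 are not given in the sources used here. The deposited DESeq2 table (base mean, log2 fold change, standard error, Wald score, p-value and adjusted p-value) was not used. TPM sums to 1000000 in each library, and 0 columns of per-sample values were left out. Symbols and coordinates came from the BDGP6.54 annotation, matched by gene ID. The members and lists were chosen with earlier results of these data known. The rule for named genes took all members, *bs*, *Act88F* and, of each list, the extremes among genes with 10 TPM or more; others were picked with their values in view. Some results are not reported here. With python 3.11.15, pandas 2.3.3 and scipy 1.17.1, differences were taken as log2 of TPM plus 1 and counted at 2-fold, and exact 95% conditional binomial intervals were computed from estimated reads rounded to whole numbers and scaled to the TPM ratio. The steps were tested on simulated data. No sequences are shown, and promoter motifs were not analysed here.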

Additional observations from a re-analysis of the deposited data

How the results depend on the processing

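The 9 genes higher by 2-fold or more were the same 9 with a pseudocount of 0.5 TPM, without a filter, with median-ratio scaling, without mitochondrial genes, without *Act88F*, in reads scaled to the library total and relative to genes of like length. Across these settings the share of all genes kept that were higher ran from 6.04% (no filter) to 11.7% (pseudocount of 0.5 TPM). With a pseudocount of 5 TPM 6 remained (*Roc2*, *Ubqn* and *Usp5* were lost), and E1, segregase and shuttle medians were 0.64, 1.15 and 1.03. With upper-quartile scaling 8 remained (*Ubqn* was lost), *Ubi-p5E* became the 1 gene lower by 2-fold, and the ubiquitin, E1, E2 and shuttle medians were -0.15, 0.68, 0.12 and 1.05. With 10 TPM or more required in either library, 8 of 30 genes passed (*Usp5* was filtered out), and the medians of all genes, cullin-RING and segregase were 0.43, 0.40 and 1.61. Of these 8, *Roc2*, *Ufd1-like*, *p47*, *Ubqn* and *Uch-L5* were under 10 TPM in control and were kept only through *bs* KD. This filter therefore favours higher values, and its count and medians are no separate check. In scaled reads the ubiquitin, E1, cullin-RING and shuttle medians were 0.093, 0.96, 0.16 and 1.33, and relative to genes of like length the ubiquitin and E1 medians were -0.033 and 0.96. The ubiquitin median of -0.0023 was -0.13 with median-ratio scaling, -0.047 without mitochondrial genes and -0.040 without *Act88F*. At 1.5-fold 13 genes were higher and 2 lower (*Ubi-p5E* and *Usp7*), and at 3-fold 3 were higher (*TER94*, *Uch-L5* and *Ufd1-like*). Of all detected genes, 21.3% were higher and 15.1% lower at 1.5-fold, and 2.96% were higher at 3-fold. At 2-fold the share of all genes kept that were higher was 4.10% with a pseudocount of 5 TPM and 15.7% with 10 TPM or more required. With upper-quartile scaling 7.08% were higher and 7.31% lower. *Su(dx)* was below 0 with median-ratio or upper-quartile scaling and relative to genes of like length. The cause of these shifts was not tested. Over all detected genes the split was 599 higher and 386 lower, but 465 and 448 with median-ratio scaling, 447 and 462 with upper-quartile scaling and 465 and 471 relative to genes of like length. Summing the polyubiquitin genes was added after the data were seen and gave -0.42, and so were the alternatives for the other lists. The deposited lengths of *Usp5*, *faf* and *ago* did not follow their reads per TPM. Of the single-gene values, 337 moved by less than the half-width of their counting interval and 89 by more. A sign changed in 8 of them, for 6 genes within 2-fold (*Su(dx)*, *Cul3*, *Cul4*, *eff*, *Ubc4* and *Ubc7*), and in no gene past 2-fold. No paired analysis was possible because each genotype had 1 library, and for the same reason none could be left out. Depth limits *Uch-L5*, *Roc2*, *park* and *Usp8* most.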

Other observations

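Genes that conjugate ubiquitin-like proteins were not uniform, and those named here were chosen after their values were seen except *smt3* and *velo*. *smt3*, which encodes SUMO, stood at 12.7 TPM in control against 45.2 TPM in *bs* KD, a log2 difference of 1.75. The heterodimeric SUMO E1 was uneven, with *Aos1* at 2.36 and 6.13 TPM (1.08) and *Uba2* at 3.26 and 3.65 TPM (0.13). *lwr*, the SUMO E2, was at 35.6 and 50.7 TPM (0.50), and the SUMO proteases *Ulp1* and *velo* were at 1.24 and 1.12 TPM (-0.08) and at 11.8 and 9.24 TPM (-0.33). In the Nedd8 pathway, which activates cullins, *Nedd8* was at 43.3 and 67.4 TPM (0.62). The subunits of its E1 differed in sign, with *Uba3* at 7.44 and 9.83 TPM (0.36) and *APP-BP1* at 3.93 and 2.09 TPM (-0.67). *Urm1*, a ubiquitin-like protein that also serves in tRNA modification, was at 2.32 and 5.65 TPM (1.00).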
